A study of Arabidopsis thaliana with 9 samples.

Results

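Jasmonates are lipid hormones of wounding, defence and stamen development, and their synthesis was described here through 10 genes among the 33302 features of one expression table. The genes were taken by their listed identifiers and follow the route of synthesis: the lipoxygenases LOX2 (AT3G45140), LOX3 (AT1G17420) and LOX4 (AT1G72520), the allene oxide synthase AOS (AT5G42650), the allene oxide cyclases AOC1 (AT3G25760), AOC2 (AT3G25770), AOC3 (AT3G25780) and AOC4 (AT1G13280), the reductase OPR3 (AT2G06050) and the conjugating enzyme JAR1 (AT2G46370). RNA came from leaves of Arabidopsis thaliana grown for 21 days in soil at 23 °C with 16 h of light and 8 h of dark, all in the Columbia-0 background. In the K36M group (2 libraries) the plants carried an inserted histone H3 gene, AT4G40040 (HTR5), in which lysine 36 is replaced by methionine, and in the WT group (2 libraries) they carried an inserted unmutated copy of that gene, so neither group is a plant without a transgene. Whether the K36M plants used for RNA were heterozygous or homozygous, the promoter of the inserted gene, its copy number and the number of lines or plants behind a library are not stated in the labels used here, and the mutation and the site of insertion cannot be told apart. The mutated histone is known to lower methylation of H3 at lysine 36, and the RNA comparison asks which leaf transcripts differ in plants that carry it.

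Synthesis starts in the chloroplast, where a lipoxygenase oxygenates linolenic acid released from membrane lipids, AOS turns the product into an unstable allene oxide and a cyclase closes the ring to give 12-oxo-phytodienoic acid (OPDA). OPDA moves to the peroxisome, where OPR3 reduces it and rounds of beta-oxidation shorten its side chain to jasmonic acid. JAR1 joins jasmonic acid to isoleucine, and that conjugate is the form bound by the receptor COI1, which then marks JAZ repressors for destruction and frees MYC2 and related transcription factors. In leaves the pathway is known for its induction by wounding and for a feedback in which jasmonate raises the transcripts of its own synthesis enzymes.

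Expression was deposited as FPKM, fragments normalized to gene length and library size, and all 10 genes were among the 17738 features tested, those averaging 1 FPKM or more. Library sums of FPKM were 932464 and 1353463 for K36M replicates 1 and 2, against 766727 and 2150314 for WT replicates 1 and 2. Of these sums, AT2G01021, a short gene model beside ribosomal RNA genes, took between 1.39% and 34.6%. The library least like the others was WT replicate 1, whose Pearson r across genes was at most 0.834 with any of them, while each of the others reached at least 0.937 with its nearest library. Libraries also differed by gene length, taken as the median log2 difference of a library to the mean of the other 3. Over genes spanning 2500 to 5000 bp, the range that holds the 3 LOX genes, OPR3 and JAR1, it was -0.16 and -0.03 in K36M replicates 1 and 2 and 0.17 and 0.02 in WT replicates 1 and 2. Over genes spanning 1000 to 2500 bp, the range that holds AOS and the 4 AOC genes, it was -0.17 and 0.22 in K36M and -0.26 and 0.22 in WT. HTR5 itself was read at 391 and 582 FPKM in K36M and at 322 and 711 FPKM in WT, and FPKM per gene does not separate the mutated from the unmutated transcript.

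In K36M leaves 8 of the 10 synthesis genes had a log2 fold change below 0 relative to WT leaves, against 54.4% of all tested features, and no gene passed the test. For LOX2, LOX3, AOS, AOC2 and JAR1, that is for genes of every step but that of OPR3, both K36M libraries lay under both WT libraries. These were 5 of 10 genes, against 19.3% of all tested features. None of the 10 lay above both WT libraries, where the share over all features was 12.1%. The lowest differences were those of AOC2 and LOX2, whose K36M means were 0.351 and 0.403 times the WT means, and the only gene with a difference above 1 on the log2 scale was AOC3, at 1.03. In limma's test over all features no synthesis gene had an adjusted p under the threshold of 0.05 in either direction (adjusted p = 1.0 for each of the 10), against 0.0113% of features called lower and 0.0282% called higher. At an unadjusted p under 0.05, 1 gene of 10 was lower, AOC2, against 2.37% of features lower and 1.74% higher.

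**Figure D1:**
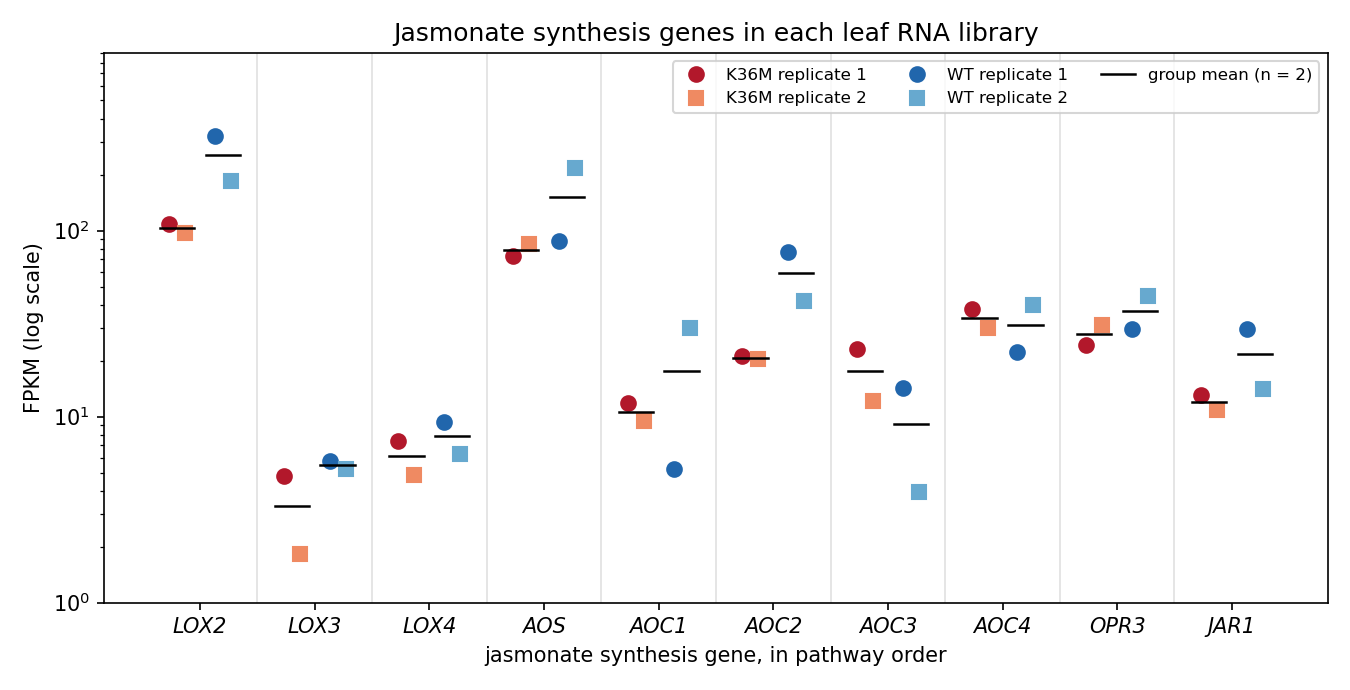
FPKM (log scale) of the 10 jasmonate synthesis genes in the 2 K36M libraries (red, left) and the 2 WT libraries (blue, right), with horizontal lines at the group means. LOX2, LOX3, AOS, AOC2 and JAR1 have both K36M points under both WT points, and the K36M points of AOC2 lie at 20.3 and 21.1 FPKM.

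LOX2, a chloroplast lipoxygenase known as the main source of wound-induced jasmonate in leaves, was the most abundant of the 10. LOX2 stood at 108 and 97.1 FPKM in K36M replicates 1 and 2, against 323 and 185 FPKM in WT replicates 1 and 2. Both K36M libraries were close together and under both WT libraries, which differed from each other 1.75 times. The log2 fold change was -1.25 ± 0.54 (SE, n = 2 each; limma unadjusted p = 0.0592, adjusted p = 1.0). It was -1.58 between the replicate 1 libraries and -0.92 between the replicate 2 libraries, and -0.85 without WT replicate 1, the library in which LOX2 was highest. With the gene length trend of each library removed it was -1.02. Leaf bulk RNA cannot tell less LOX2 RNA per cell from fewer cells that make it, and the same holds for each gene below.

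LOX3 and LOX4 are related lipoxygenases that act together in stamen maturation. LOX3 had 4.77 and 1.83 FPKM in K36M and 5.77 and 5.20 FPKM in WT. The groups did not overlap, but K36M replicate 1 lay close to the WT libraries and the 2 K36M libraries differed 2.61 times. Its log2 fold change was -0.68 ± 0.48 (limma adjusted p = 1.0), and -0.17 without K36M replicate 2. LOX4 had 7.42 and 4.87 FPKM in K36M and 9.37 and 6.29 FPKM in WT. Here the groups overlapped, with K36M replicate 1 above WT replicate 2, and the log2 fold change was -0.31 ± 0.42 (limma adjusted p = 1.0), or -0.05 without WT replicate 1 or K36M replicate 2. LOX6, a further lipoxygenase of this class, known from xylem contact cells, had 9.68 and 9.73 FPKM in K36M and 16.3 and 9.35 FPKM in WT, so that WT replicate 1 alone stood out.

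Within the summed FPKM of LOX2, LOX3, LOX4 and LOX6, a ratio that library scaling does not move, LOX2 held 83.1% and 85.5% in K36M and 91.1% and 89.9% in WT. The K36M shares were both below the WT shares, and the mean difference was -6.2 percentage points. The summed FPKM of these lipoxygenases was 129 and 114 in K36M and 355 and 206 in WT. With LOX1 and LOX5, which act at another position of the fatty acid, added to the sum, the LOX2 share was 75.7% and 76.6% in K36M and 87.4% and 86.1% in WT.

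AOS, the cytochrome P450 that forms the allene oxide and is encoded by this 1 gene, had 72.7 and 84.4 FPKM in K36M and 88.3 and 216 FPKM in WT. The groups did not overlap, yet WT replicate 1 lay just above K36M replicate 2 and most of the difference came from WT replicate 2. The log2 fold change of AOS was -0.81 ± 0.59 (SE, n = 2 each; limma adjusted p = 1.0). Within replicates 1 and 2 it was -0.28 and -1.35. Leaving out WT replicate 1 gave -1.45, and leaving out WT replicate 2 gave -0.17. AOS and LOX2 thus differed in which WT library was the higher: LOX2 was highest in WT replicate 1 and AOS in WT replicate 2.

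**Figure D2:**
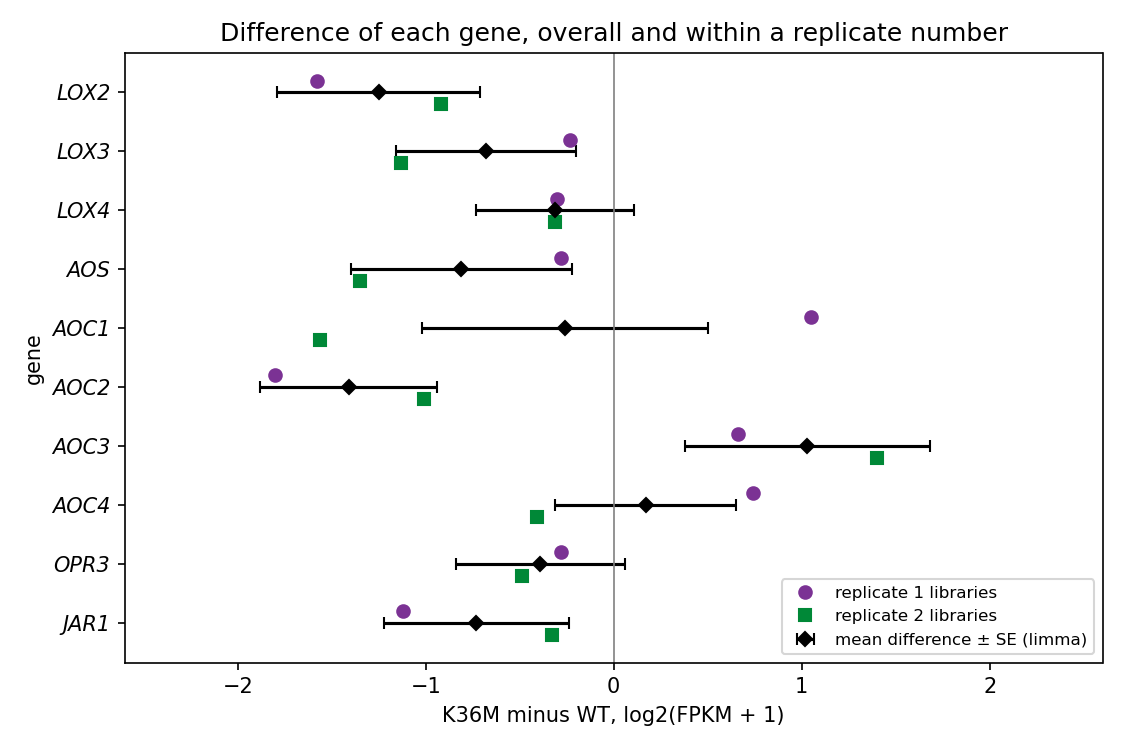
K36M minus WT difference in log2(FPKM + 1) for each synthesis gene, in pathway order from LOX2 at the top to JAR1 at the bottom. Black diamonds give the mean difference with its standard error from limma (2 libraries per group), purple circles the difference between replicate 1 libraries and green squares that between replicate 2 libraries. AOC1 and AOC4 lie on opposite sides of 0 in the 2 replicates, and LOX2 and AOC2 lie below -0.9 in both.

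The cyclases, which close the ring of OPDA, did not lie on one side as a family. AOC2 had 21.1 and 20.3 FPKM in K36M and 76.2 and 41.9 FPKM in WT. The K36M libraries were nearly equal and lay well under the lower WT library. The log2 fold change of AOC2 was -1.41 ± 0.47 (SE, n = 2 each; limma unadjusted p = 0.0245, adjusted p = 1.0), -1.80 and -1.01 within replicates 1 and 2, and -0.98 without WT replicate 1. AOC1, its neighbour, had 11.8 and 9.49 FPKM in K36M and 5.21 and 29.8 FPKM in WT. The K36M values lay between the 2 WT values, and the difference changed sign between the replicates, at 1.05 in replicate 1 and -1.56 in replicate 2. AOC3 had 23.1 and 12.1 FPKM in K36M and 14.3 and 3.95 FPKM in WT. It was the 1 synthesis gene that was highest in a K36M library, but its groups overlapped and the log2 fold change was 1.03 ± 0.65 (limma adjusted p = 1.0), or 0.22 without WT replicate 2. AOC4, which lies on another chromosome, had 37.9 and 29.9 FPKM in K36M and 22.3 and 40.0 FPKM in WT, with overlapping groups and a difference of 0.17 ± 0.48 on the log2 scale (limma adjusted p = 1.0).

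As shares of the 4 cyclases' summed FPKM, AOC2 held 22.5% and 28.3% in K36M and 64.6% and 36.2% in WT, so that both K36M shares were below both WT shares. AOC3 held 24.6% and 16.8% in K36M and 12.1% and 3.41% in WT, above both. AOC4 had the greatest share in each K36M library, 40.3% and 41.7%, and 18.9% and 34.6% in WT, where AOC2 was the greatest. AOC1 held 12.6% and 13.2% in K36M, between the 4.41% and 25.8% of WT. The sum over the 4 genes was 93.9 and 71.8 FPKM in K36M and 118 and 116 FPKM in WT, a narrower gap than that of AOC2 alone. AOC1, AOC2 and AOC3 follow each other on chromosome 3 as tandem copies of similar sequence. The counting behind the FPKM may have split fragments between them, so the values of the single copies are uncertain. Their summed FPKM was 56.0 and 41.9 FPKM in K36M and 95.7 and 75.7 FPKM in WT.

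**Figure D3:**
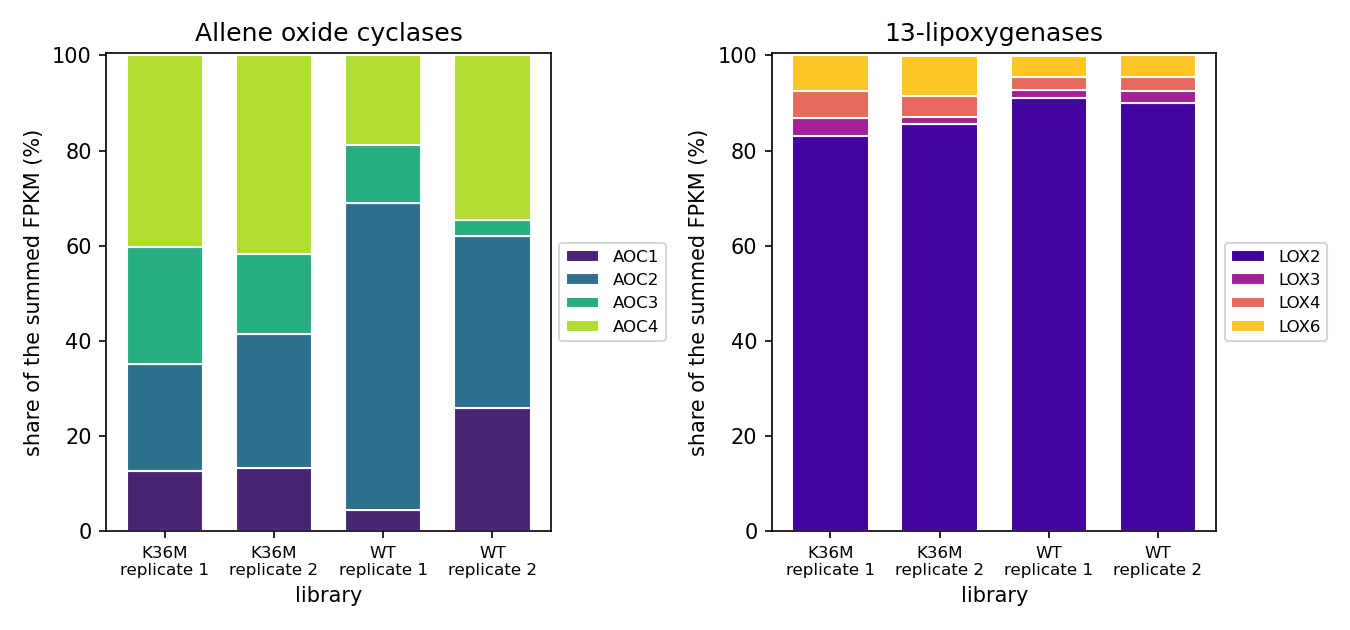
Share of the summed FPKM held by each allene oxide cyclase gene (left) and each 13-lipoxygenase gene (right) in the 2 K36M and the 2 WT libraries. AOC2 holds 22.5% and 28.3% in K36M and 64.6% and 36.2% in WT, and LOX2 holds 83.1% and 85.5% in K36M and 91.1% and 89.9% in WT.

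OPR3, the peroxisomal reductase that commits OPDA to jasmonic acid, had 24.2 and 31.2 FPKM in K36M and 29.7 and 44.3 FPKM in WT. The groups overlapped by a small margin, K36M replicate 2 lying above WT replicate 1, and the log2 fold change was -0.39 ± 0.45 (limma adjusted p = 1.0), or -0.11 without WT replicate 2. JAR1, which makes the isoleucine conjugate, had 13.1 and 10.9 FPKM in K36M and 29.6 and 14.0 FPKM in WT. Its groups did not overlap, but WT replicate 2 lay just above the K36M libraries. The log2 fold change of JAR1 was -0.73 ± 0.49 (limma adjusted p = 1.0), -1.12 and -0.33 within replicates 1 and 2, and -0.21 without WT replicate 1.

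Taking the 10 genes side by side, the median log2 fold change was -0.54, against -0.05 over all tested features. The labels do not say that replicate numbers pair plants across groups, so values within a replicate compare libraries of like number only. Within replicate 1 the median was -0.28, against -0.09 over all features, and 7 of 10 genes were lower in the K36M library, against 54.7% of features. Within replicate 2 it was -0.71, against -0.03, and 9 of 10 genes were lower in K36M, against 52.6% of features. Without WT replicate 1, both K36M libraries lay below the remaining WT library for 8 of the 10, against 44.8% of features. Without WT replicate 2 they did so for 6 of the 10, against 40.8%. Leaving out a library can only keep or raise such a count, for the 10 genes and for all features alike. Which genes were separated also depended on how libraries were scaled. LOX2, AOS and AOC2 lay below both WT libraries under each of the 4 other scalings tried and with the gene length trend removed, whereas LOX3 and JAR1 did so under none of these, and OPR3 joined them under 3 of the 4 scalings. The count was then 3 of 10 with median scaling, against 14.8% of features, and 4 of 10 with scaling to the FPKM sum without AT2G01021, against 9.06%.

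No 1 library was the highest or lowest for the whole pathway. WT replicate 1 was the highest library for 5 genes, LOX2, LOX3, LOX4, AOC2 and JAR1, and WT replicate 2 for 4, AOS, AOC1, AOC4 and OPR3. Over all 17738 tested features, WT replicate 1 was the highest for 6026 and WT replicate 2 for 5737. A K36M library was the lowest for 7 of the 10, WT replicate 1 for AOC1 and AOC4 and WT replicate 2 for AOC3. Among all 17738 features a K36M library was the lowest for 7573, WT replicate 1 for 6166 and WT replicate 2 for 3999. Summed over the 10 genes the FPKM was 324 and 302 in K36M and 604 and 586 in WT, sums in which LOX2 and AOS weigh most.

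The order of mean FPKM was the same in both groups at its ends. In K36M the means ran from LOX2 at 102 FPKM and AOS at 78.6 through AOC4, OPR3, AOC2, AOC3, JAR1 and AOC1 to LOX4 at 6.15 and LOX3 at 3.30 FPKM. In WT they ran from LOX2 at 254 FPKM and AOS at 152 through AOC2, OPR3, AOC4, JAR1, AOC1 and AOC3 to LOX4 at 7.83 and LOX3 at 5.49 FPKM. AOC2 thus stood below AOC4 and OPR3 in K36M and above both in WT, and AOC3 stood above JAR1 and AOC1 in K36M and below both in WT. Neighbours from AOC2 down to LOX4 in WT overlapped in range, as did LOX2 and AOS in WT. In K36M the overlapping neighbours were AOC4 with OPR3, AOC2 with AOC3, AOC3 with JAR1, and JAR1 with AOC1. LOX2 ranked at the 93.5 and 91.1 percentiles of tested features in K36M and at the 98.4 and 94.4 percentiles in WT.

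By the likeness of their centred log2(FPKM + 1) values over the 4 libraries, the features closest to LOX2 were AT3G15356, SUC1, DJ1B, AGO2 and AT4G26910, at root mean square differences of 0.05 to 0.07 log2 units. SUC1, a sucrose transporter, had 35.0 and 33.1 FPKM in K36M and 106 and 56.8 FPKM in WT. AGO2, an Argonaute protein of small RNA silencing, had 3.11 and 2.51 FPKM in K36M and 10.2 and 5.20 FPKM in WT. Those closest to AOC1 were RAV2, FBA1, VTC2, AT2G39980 and AT5G17600, at 0.038 to 0.141 log2 units. VTC2, an enzyme of ascorbate synthesis, had 769 and 573 FPKM in K36M and 322 and 1600 FPKM in WT. With 4 libraries such likeness is a description of few values.

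The steps around the 10 genes were set beside them by role, and none of their tested members passed the test over all features. Of 13 tested genes of OPDA transport and peroxisomal chain shortening, 9 were lower in both K36M libraries than in either WT library, against 19.3% of features, and none lay above both. They were OPCL1, ACX1, ACX2, ACX3, ACX5, AIM1, MFP2, and the thiolases KAT1 (AT1G04710) and KAT2. The list's median log2 fold change was -0.60, with -0.52 within replicate 1 and -0.48 within replicate 2, and -0.35 with the gene length trend removed. Leaving out any 1 of the 4 libraries, which can only keep or raise this count, gave 10 of 13, against 26.8% to 44.8% of features. OPCL1, the ligase that activates the OPR3 product for beta-oxidation, had 14.3 and 11.3 FPKM in K36M and 40.2 and 21.8 FPKM in WT, the farthest of this list from 0, at -1.16 ± 0.47 (limma unadjusted p = 0.0468, adjusted p = 1.0).

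ACX1, the acyl-CoA oxidase known to act in jasmonate synthesis, had 30.7 and 34.2 FPKM in K36M and 36.1 and 67.7 FPKM in WT. Its close relative ACX5 had 2.43 and 2.58 FPKM in K36M and 4.26 and 5.94 FPKM in WT. MFP2, a multifunctional protein of the next steps, had 9.77 and 13.3 FPKM in K36M and 22.3 and 19.0 FPKM in WT. Both K36M values were the lower in each case, with log2 fold changes of -0.60 for ACX1 (-0.15 without WT replicate 2), -0.79 for ACX5 and -0.79 for MFP2. ACX3, an oxidase of medium-chain substrates, was at -0.77. These enzymes also serve fatty acid breakdown in general.

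**Figure D4:**
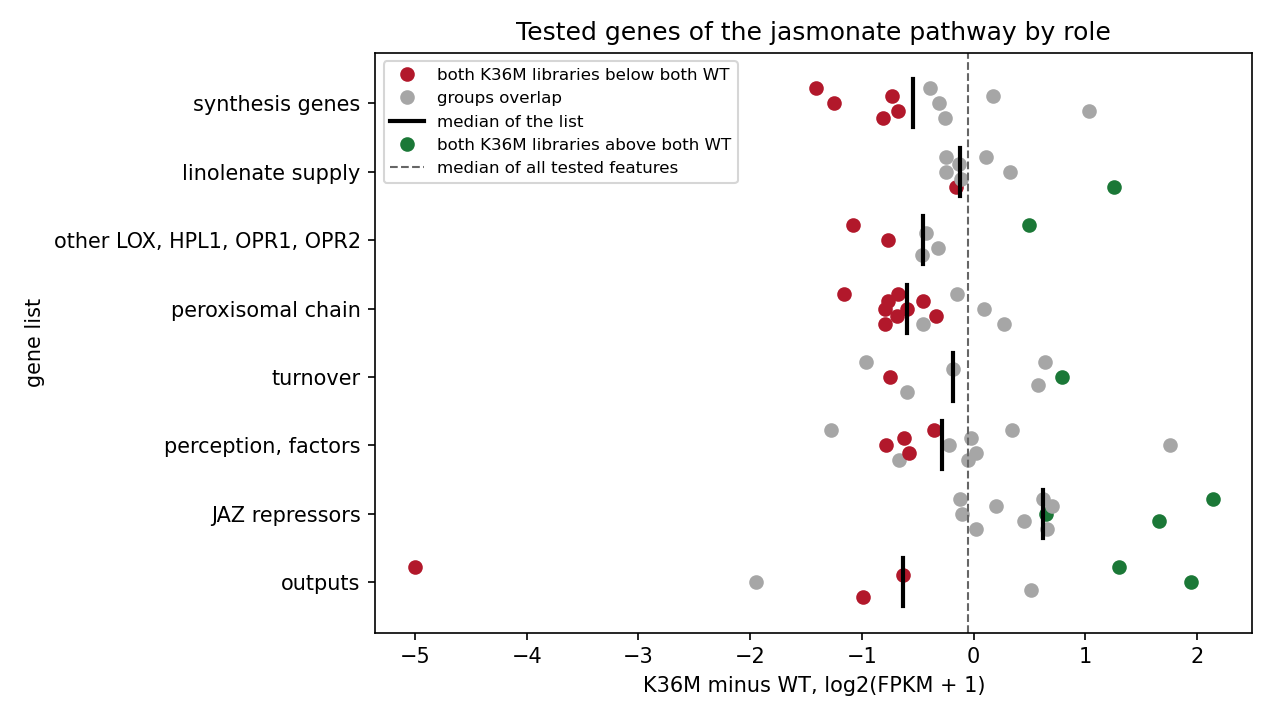
K36M minus WT difference in log2(FPKM + 1) of each tested gene of the jasmonate pathway, by role. Red points have both K36M libraries below both WT libraries, green points have both above and grey points overlap; black bars give each list's median and the dashed line the median of all tested features, -0.05. The synthesis genes and the peroxisomal chain lie mostly left of that line, at medians of -0.54 and -0.60, and the JAZ repressors mostly right of it, at 0.62.

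The genes that supply linolenic acid lay on both sides. Of 11 listed genes 8 were tested, with a median log2 fold change of -0.12, or 0.12 without WT replicate 2. For 1 of them both K36M libraries were below both WT libraries and for 1 above, against 19.3% and 12.1% of features. FAD2, the desaturase that makes linoleic acid outside the plastid, had 366 and 416 FPKM in K36M and 159 and 603 FPKM in WT. SSI2, the stearoyl desaturase of the plastid, had 112 and 115 FPKM in K36M and 103 and 178 FPKM in WT. In both genes the 2 WT libraries spanned the K36M values. FAD3, which desaturates linoleic acid to linolenic acid, was at -0.25, and AT1G02660 had 4.59 and 10.5 FPKM in K36M and 1.55 and 3.42 FPKM in WT, at 1.26 ± 0.53 (limma adjusted p = 1.0). The anther lipase DAD1 and its relative DGL were under the filter, DGL listed at 0 in each library and DAD1 at 0 in all but WT replicate 1, where it had 0.0736 FPKM.

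Among 6 other genes that handle the same or related lipids, 2 lay below and 1 above both WT libraries, against 19.3% and 12.1% of features. OPR1, a cytosolic OPDA reductase relative, had 19.7 and 30.9 FPKM in K36M and 54.5 and 52.4 FPKM in WT, at -1.08 ± 0.45 (limma adjusted p = 1.0). HPL1, named as a hydroperoxide lyase gene, had 8.32 and 6.16 FPKM in K36M and 12.7 and 13.1 FPKM in WT. LOX1 had 8.98 and 10.8 FPKM in K36M and 6.77 and 6.65 FPKM in WT. LOX5 had 3.68 and 2.47 FPKM in K36M and 8.47 and 2.24 FPKM in WT, so its mean of -0.46 rested on WT replicate 1.

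Genes of jasmonate turnover and modification were mixed, with 7 of 13 tested and a median log2 fold change of -0.18. IAR3, an amidohydrolase that splits the isoleucine conjugate, had 9.98 and 12.7 FPKM in K36M and 21.8 and 17.8 FPKM in WT, below both. GH3.10, a relative of JAR1, had 16.9 and 23.2 FPKM in K36M and 7.36 and 16.5 FPKM in WT, above both. CYP94B3, which oxidizes the conjugate, had 2.46 and 1.15 FPKM in K36M and was listed at 0 and at 2.05 FPKM in WT. JRG21, a jasmonate-regulated gene, had 0.184 and 0.386 FPKM in K36M and 0.0971 and 4.67 FPKM in WT. It passed the filter only through WT replicate 2. For both CYP94B3 and JRG21 the groups overlapped.

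For perception, COI1 had 13 and 11.2 FPKM in K36M and 15.6 and 15.7 FPKM in WT, at -0.35 ± 0.38 on the log2 scale (limma adjusted p = 1.0), with groups that did not overlap. MYC2 had 34.8 and 13.9 FPKM in K36M and 15.5 and 19.1 FPKM in WT, and only K36M replicate 1 stood apart. MYC3, which acts with MYC2, had 7.73 and 12.1 FPKM in K36M and 22.7 and 11.3 FPKM in WT. Over the 12 tested genes of this list the median was -0.28, with 4 below both WT libraries, against 19.3% of features, and none above both, against 12.1%. MED25, a Mediator subunit that works with MYC2, was among the 4, at 3.46 and 2.29 FPKM in K36M and 7.70 and 3.96 FPKM in WT. ORA47, a transcription factor known to activate synthesis genes, had 18.3 and 7.52 FPKM in K36M and 0.65 and 7.73 FPKM in WT. Its log2 fold change of 1.76 ± 0.85 (limma adjusted p = 1.0) rested on the high K36M replicate 1 and the low WT replicate 1. The difference was 3.55 between those libraries and -0.03 between the replicate 2 libraries. JAV1, a repressor of jasmonate defence, had 6.73 and 1.85 FPKM in K36M and 15.9 and 6.73 FPKM in WT, with K36M replicate 1 level with WT replicate 2.

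The JAZ repressors, whose transcripts jasmonate is known to induce, lay the other way from the synthesis genes, with a median of 0.62 over 11 tested members and 3 above both WT libraries, JAZ7, JAZ8 and JAZ11, against 12.1% of features. JAZ7 had 10.4 and 11.6 FPKM in K36M and 0.294 and 4.72 FPKM in WT, at 2.14 ± 0.72 (limma unadjusted p = 0.0240, adjusted p = 1.0). JAZ8 had 7.24 and 1.59 FPKM in K36M and 0.615 and 0.326 FPKM in WT, so it passed the filter only through its K36M values. The place of JAZ8 among the 3 is therefore no independent result. The list's median was 0.97 within replicate 1, 0.24 within replicate 2 and 0.00 without WT replicate 1. Both K36M libraries lay above WT replicate 2 for 5 of the 11, against 30.0% of features. That count can only equal or exceed the count against both WT libraries. Among the alternatives run, JAZ7 passed the test only when WT replicate 2 was left out (log2 fold change 3.21, limma adjusted p = 0.0258), where 702 of 17738 features were called, 192 higher and 510 lower. Without WT replicate 1 its log2 fold change was 1.07. Whether JAZ and synthesis genes differ in their response was not tested.

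Among 7 jasmonate output genes 3 lay below and 2 above both WT libraries, against 19.3% and 12.1% of features. VSP1, a vegetative storage protein, had 25.2 and 30.3 FPKM in K36M and 4.6 and 8.77 FPKM in WT. Its log2 fold change was 1.95 ± 0.45 (limma unadjusted p = 0.00452, not called after adjustment). Over the main fit and the alternatives run, the VSP1 difference ranged from 1.51 to 2.36. THI2.1, the other gene above both, had 1.9 and 2.61 FPKM in K36M and 0 and 0.715 FPKM in WT. It passed the filter only through its K36M values, so its place among the 2 is no independent result. TAT3, a tyrosine aminotransferase, had 0.546 and 0.715 FPKM in K36M and 244 and 10.1 FPKM in WT. It passed the filter only through its WT values, so its place among the 3 below is likewise no independent result. VSP1 and TAT3 thus stood on opposite sides, while LOX2, itself a jasmonate-induced gene, was on the low side. The log2 fold change of TAT3 was -5.00 ± 1.33 (limma adjusted p = 1.0), and -2.77 without WT replicate 1. TAT3 passed the test only when WT replicate 2 was left out, among the alternatives run (log2 fold change -7.23, limma adjusted p = 0.0153), again among 702 called features.

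Markers of leaf and other tissues differed between the libraries as well. All 5 leaf mesophyll markers were abundant, with summed FPKM of 56700 and 69700 in K36M and 47700 and 121000 in WT, and 1 of 5 was below both WT libraries, against 19.3% of features. The 5 vascular markers summed to 306 and 296 FPKM in K36M and 283 and 415 FPKM in WT, with 3 below both WT libraries, against the same 19.3%, and the 5 guard cell markers to 19.8 and 17.5 FPKM in K36M and 36.9 and 13.8 FPKM in WT, with none separated. The 5 epidermis markers summed to 501 and 354 FPKM in K36M and 83.5 and 551 FPKM in WT, with none separated and PDF1 at 4.81 FPKM in WT replicate 1. The 7 flower and stamen markers summed to 8.79 and 15.9 FPKM in K36M and 1.63 and 2.06 FPKM in WT, and 4 of them were under the filter. The 3 tested, AP3, PI and SEP3, lay above both WT libraries, against 12.1% of features. They passed the filter only through their K36M values, so that count is no independent result. AP3 was listed at 0 in WT. AG had 0.794 and 0.86 FPKM in K36M and 1.04 and 0.177 FPKM in WT. The stamen genes AMS, MYB21 and MYB24 were under 0.3 FPKM in each library. The 4 meristem markers, of which 2 were tested, summed to 15.6 and 12.5 FPKM in K36M and 0.265 and 12.5 FPKM in WT. Of the 2 tested, 1 lay above both WT libraries, against 12.1% of features. It was KNAT1, at 4.19 and 3.67 FPKM in K36M and 0.0354 and 2.69 FPKM in WT, while STM overlapped. The part of these differences, and of WT replicate 1, in the values of the synthesis genes was not tested.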

How the data were processed

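The authors deposited FPKM in a table without a header, with the unit taken from the file name quoted in the labels, and libraries were mapped through the condition names quoted there. Per the labels' protocols, the kit for the mRNA libraries keeps strand. Bowtie2, bedtools and the TAIR10 build are named, with no roles, per the submitters' processing notes. The program that made the FPKM, its use of strand and the depth are not stated in the sources used here, so the spread between libraries is the only measure of precision. Low values allowed a relative depth for 1 pair: of 2664 genes below 1 FPKM in K36M and WT replicate 2 alike, 86.4% had a K36M to WT ratio equal to 0.973 times a ratio of whole numbers no greater than 12 (within 0.0005 on the natural log scale), against at most 3.7% for other pairs. No count model was run.

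Values were analysed as log2(FPKM + 1), which understates changes of low genes, for 17738 features averaging 1 FPKM or more. K36M was compared with WT by limma 3.58.1 in R 4.3.3 (mean-variance trend, two-sided, Benjamini-Hochberg over all tested features, threshold 0.05). With 2 libraries per group no permutation test could pass that threshold. The limma step was run on simulated data whose planted changes were all larger than that of any synthesis gene. That run therefore does not tell whether differences of the size seen in these genes would be found. The labels call the libraries biological duplicates; p-values measure the spread between these libraries. The FPKM of HTR5, the transgene's parent gene, was read as for any gene. Symbols and spans of genes were read from RefSeq's TAIR10.1 table, which held 32361 of the 33302 features; builds differ, so no coordinates are given.

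The members and 14 lists (118 genes) were chosen with earlier results of these data known. The rule for named genes took all 10 members, up to 4 tested genes of the greatest absolute change per list (2 for JAZ and outputs), HTR5, LOX6, OPR1, MYC2, COI1, OPCL1 and ACX1, and the 5 features of at least 5 FPKM nearest to LOX2 and to AOC1. DAD1, DGL, JAZ11, THI2.1, the separated genes of the peroxisomal list and the tissue markers given by name were chosen after seeing their values. The alternatives changed the pseudocount, the filter, the scaling or limma's moderation (no trend, or robust), or added the replicate number as a block, removed each library's gene length trend by loess, or left out each library. Counts of separated genes with a library left out were added after seeing the data. ChIP libraries of the series were not analysed here. Python 3.11.15, pandas 2.3.3 and matplotlib 3.10.9 served for tables and figures.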

Additional observations from a re-analysis of the deposited data

How the results depend on the processing

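No synthesis gene was called by limma under any of the 17 alternatives. With all 4 libraries kept, the lowest limma adjusted p was 0.526, for AOC2 with the replicate block and the gene length trend removed. At a limma unadjusted p under 0.05 those fits gave 0 to 2 of the 10 genes. The 0 came with scaling to the FPKM sum without AT2G01021, against 516 of 17738 features. The 2 came with the replicate block or no trend, against 794 and 680 of 17738, and with no filter, against 1175 of 25789. Over all features 7 were called, 0 with a pseudocount of 5 (limma, 673 at an unadjusted p under 0.05), 0 with no filter (1175) and 0 with the replicate block (794), 28 with the replicate block and the gene length trend removed, and 0 to 702 with a library left out (702 without WT replicate 2, 13 without WT replicate 1, and 0 without K36M replicate 1 or 2, with 216 and 151 at an unadjusted p under 0.05). The labels number the replicates without saying that a number pairs plants across groups. The replicate differences of the 2 groups correlated at 0.13 across genes, and the block changed no call among the synthesis genes. Some traits did go with the number. Over genes spanning 1000 to 2500 bp, which include AOS and the AOC genes, both replicate 2 libraries had a median difference of 0.22. Replicate 1 had -0.17 in K36M and -0.26 in WT. AT2G01021 took 19.6% and 34.6% of FPKM in replicate 2 of K36M and WT, and 9.01% and 1.39% in replicate 1. Their part in the synthesis genes was not tested.

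The synthesis genes' median of -0.54 was -0.35 with a pseudocount of 5, -0.39 with a minimum mean of 5 FPKM, where LOX3 was not tested, -0.39 with the length trend removed, with or without the replicate block, and -0.64 to -0.37 with a library left out. The count of 5 genes below both WT libraries was 3 with median scaling and 3 with the length trend removed. It was 6 to 8 with a library left out (26.8% to 44.8% of all features). Leaving out a library can only keep or raise counts of separated genes. The count with the length trend removed stands here without its share over all features, so it is not read as a result about the synthesis genes. Medians of the other lists were as follows. The peroxisomal list was at -0.42 with a pseudocount of 5, -0.35 with the length trend removed, with or without the block, and -0.67 to -0.48 with a library left out. The JAZ list was at 0.33 with a pseudocount of 5 or a minimum mean of 5 FPKM. With a library left out it was at 0.00 to 0.62, and 4 to 7 of its genes lay above the WT libraries (17.9% to 39.4% of all features). Those genes include JAZ8, which passed the filter only through its K36M values. With a library left out linolenic acid supply (-0.12 with all) ranged from -0.37 to 0.12, outputs (-0.63) from -1.18 to -0.09, the other lipoxygenase list from -0.72 to -0.23, turnover from -0.61 to 0.75 and perception from -0.68 to -0.16. Adding LOX1 and LOX5 lowered the LOX2 share in each library by construction, and the share difference moved from -6.2 to -10.6 points. That move depends on the values of the added genes. LOX1 held 6.32% and 8.54% of the larger sum in K36M and 1.83% and 3.1% in WT. LOX5 held 2.59% and 1.95% in K36M and 2.29% and 1.05% in WT.

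With a library left out the difference took both signs for 10 named genes: HTR5 (-0.57 without WT replicate 1, 0.57 without WT replicate 2; 0.00 with all 4 libraries), AOC1 (-1.41 without WT replicate 1, 0.90 without WT replicate 2), AOC4 (-0.24 and 0.57), FAD2 (-0.63 and 1.29), SSI2 (-0.65 and 0.14), LOX5 (0.31 and -1.23), CYP94B3 (-0.16 and 1.45), JRG21 (-2.14 and 0.22) and LOX6 (0.05 and -0.69), each in that order of libraries, and MYC2 (-0.29 without K36M replicate 1, 0.97 without K36M replicate 2). The cause was not tested. Each such fit has a lone library in 1 group and takes its spread from the other.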
